A study of Mus musculus with 2 samples.

Results

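IgA plasma cells are the antibody-secreting cells of the intestinal lamina propria. They arise from activated B cells that have switched to the alpha heavy chain, join IgA units with the J chain (Jchain) and release the product for transport across the epithelium into the gut lumen. Each cell carries 1 productive heavy chain gene and, as a rule, 1 type of light chain, kappa or lambda, so a single cell shows which antibody it makes. Much of its messenger RNA encodes immunoglobulin, and the folding and export of this protein occupy an expanded endoplasmic reticulum (ER).

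The cells described here came from 2 single-cell RNA libraries of mouse tissue, made with the 3′ chemistry of 10x Genomics. For the library WT, the normal duodenum was taken from 3 mice of genotype Lkb1+/+;Myh11-Cre/ERT2. For the library Lkb1_Het, polyps were taken from 3 mice of genotype Lkb1flox/+;Myh11-Cre/ERT2. Both groups carried the Cre transgene, an inducible recombinase under the promoter of Myh11, a smooth muscle myosin, so that plasma cells were not the cell type the deletion was aimed at. Lkb1 (Stk11) encodes the kinase lost in Peutz-Jeghers polyposis. The study compared polyps of mice with stromal Lkb1 deficiency with normal duodenum; the source label of both samples reads duodenum tissues. Ages and induction of the recombinase are not given in the sources used here. The mice of a group were pooled in 1 library, so no group had replicates, the values below describe these libraries, and no test was run. Intervals are exact 95% intervals that cover counting error only. Tissue, genotype and library preparation cannot be told apart.

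IgA plasma cells were chosen by their counts of unique molecular identifiers (UMIs, 1 per captured RNA molecule). A barcode was kept if it reached 500 UMIs and 250 genes with no more than 25% of its UMIs mitochondrial. It was taken as an IgA plasma cell where it held at least 2 UMIs of Mzb1, an ER protein of antibody-producing cells, at least 10% of its UMIs in Igha, Igkc, Iglc1, Iglc2 and Jchain together, and more Igha than each of the mu and gamma heavy chains Ighm, Ighg1, Ighg2b, Ighg2c and Ighg3. Of 24277 barcodes 11712 were kept and 424 met this rule. They were 153 of 3252 kept barcodes in the normal duodenum, a share of 4.70% (4.003–5.49), and 271 of 8460 in the polyp, a share of 3.20% (2.84–3.60). With a minimum of 1000 UMIs the shares became 7.19% and 4.28%. The part of tissue digestion and depth in them was not tested. The libraries shared 44 barcode sequences, of which 10 were kept in both and none belonged to IgA plasma cells in both. The rule found only 2 plasma cells of another isotype in the normal duodenum, both led by Ighg2c, and 3 in the polyp, 2 led by Ighm and 1 by Ighg1.

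The thresholds cut the plasma cells unevenly. The lowest immunoglobulin share inside the rule was 15.4% in the normal duodenum and 10.0% in the polyp, and the highest outside it was 6.98% and 9.70%. Exactly 2 Mzb1 UMIs were held by 8 normal and 13 polyp members, and another 34 and 26 barcodes that met the other conditions held exactly 1. One polyp member was an IgA cell by 7 Igha UMIs only, 5 more than its next heavy chain, with 528 Igkc and 150 Jchain UMIs per Igha UMI.

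All 5 marker genes of the cell type were present far over the level of the other kept barcodes, which goes with the label, although Mzb1, Jchain and Igha were part of the rule. Levels are given as counts per 1000000 non-immunoglobulin UMIs (CPM), because immunoglobulin RNA took up most of each cell. Mzb1 (chromosome 18) stood at 6588 CPM (6425–6754) in normal members and 4227 CPM (4109–4349) in polyp members, against 9.80 and 11.0 CPM in the other kept barcodes. Xbp1, the transcription factor that expands the secretory pathway, stood at 1621 and 1614 CPM against 95.8 and 216 CPM. Derl3, a factor of ER-associated degradation, stood at 817 and 466 CPM against 4.66 and 1.76 CPM. Of the genes fixed as plasma identity genes, 21 of 22 counted lay past 2-fold over the other barcodes in both libraries, where 14.1% of all 3705 genes counted did. Mzb1, part of the rule, is on this list, and all genes were counted by their UMIs in the members. The count is therefore a description and not a test of the label. Of the 8 B-cell markers, 5 had UMIs in the members of each library. The list summed to 421 and 260 CPM in members against 33.997 and 19.97 CPM in the other kept barcodes. Most of the sum in members came from Cd79b, which is also on the plasma identity list. Cd22 and Fcer2a had no UMI in either library, Pax5 none in the normal and Bank1 none in the polyp members.

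Polyp members were shallower than normal ones. The median was 18495 UMIs and 1662 genes per cell in the normal duodenum and 8042 UMIs and 1297 genes in the polyp, whereas the medians of the other kept barcodes were close, at 2231 and 2186 UMIs. The cells ranged from 694 to 51953 UMIs in the normal duodenum and from 1127 to 36254 in the polyp, so the ranges overlapped. The interquartile range was 7241–26273 UMIs in the normal duodenum and 5984.5–10691 in the polyp. The normal median lay above the polyp 95th percentile, 17296.5 UMIs. Non-immunoglobulin UMIs had medians of 5912 and 3462 and summed to 938864 and 1135004 over the members. No doublet caller was run.

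RNA typical of other cell types was carried along and differed between the libraries. Markers of pancreatic acinar cells, digestive enzymes such as Prss2 and Clps, held 3.20% of the members' non-immunoglobulin UMIs in the normal duodenum and 0.0893% in the polyp. Their summed level in the other kept barcodes was 50201 and 1954 CPM. Markers of gastric and Brunner mucous cells, led by the trefoil factor Tff2, held 0.113% and 5.26%, with 15075 and 143423 CPM in the other barcodes. At least 5% from any 1 such list was found in 12 normal and 48 polyp members, and in single members it reached 54.6% for acinar genes and 48.5% for endocrine genes. T-cell and innate lymphoid markers were low in both, at 388 and 116 CPM with a median of 0 per member. The part of this carried RNA in the gene differences below was not tested except where a value without these members is given.

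**Figure D1:**
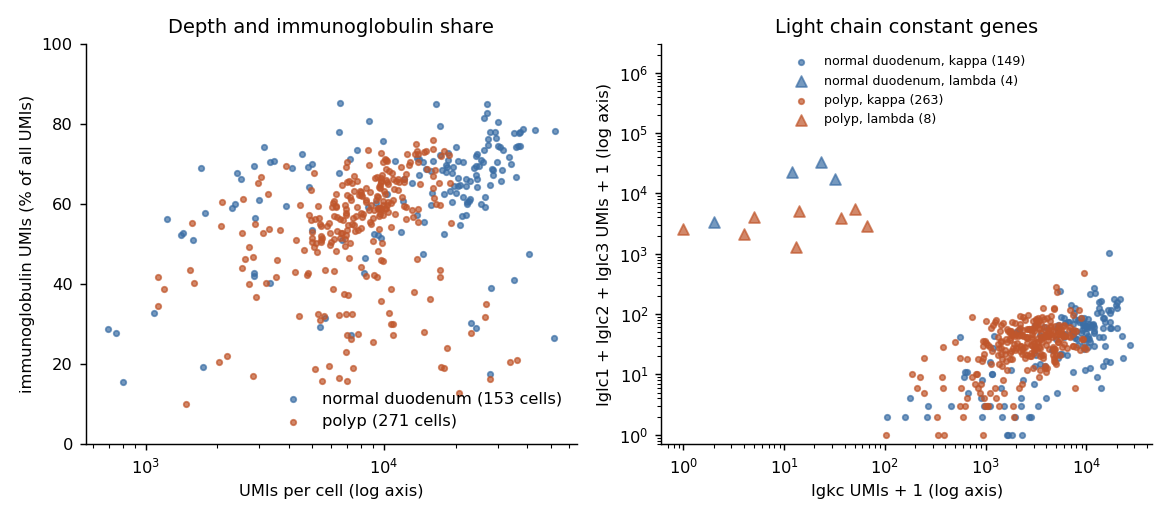
Left, UMIs per cell (log axis) against the percentage of UMIs from immunoglobulin genes; right, Igkc against summed Iglc1, Iglc2 and Iglc3 UMIs per cell (1 added, both log axes), with 1 point per IgA plasma cell, blue for normal duodenum (153) and orange for polyp (271). The 12 lambda cells (triangles) stand apart from the 412 kappa cells, and normal cells reach further to the right in both plots.

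Immunoglobulin genes, Jchain included, made up a median of 66.9% of a normal member's UMIs (range 15.5–85.3) and 56.9% of a polyp member's (10.0–76.1). The gap lay in the kappa light chain. Igkc (chromosome 6:70726435–70726966) took a median of 46.9% of UMIs in normal and 32.9% in polyp members, while Igha took 11.1% and 12.3% and Jchain 5.81% and 6.36%. A member therefore held a median of 4.38 Igkc UMIs per Igha UMI in the normal duodenum and 2.83 in the polyp, but 0.517 and 0.524 Jchain UMIs per Igha UMI. The ratios overlapped between the libraries: the interquartile range was 2.98–5.87 Igkc per Igha UMI in the normal duodenum and 1.87–3.75 in the polyp.

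Igha (chromosome 12:113254830–113260236, minus strand) held 99.8% of all heavy chain constant UMIs of normal and 99.7% of those of polyp members; the rule required it to lead. Ighe and Ighd had 0 UMIs. The most frequent second isotype was Ighg2b, with UMIs in 23 normal members (15.0%) and 45 polyp members (16.6%) against 0.484% and 0.415% of the other kept barcodes, which were shallower. It reached 57 UMIs in a normal and 329 UMIs in a polyp member. In the normal duodenum Ighg3 was found in 4 members, with up to 54 UMIs in 1 of them. A UMI of Igha itself lay in 75.02% of the other normal and 62.8% of the other polyp barcodes, with a median of 1 UMI in both.

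Nearly all IgA plasma cells made kappa light chains. A member was called kappa where Igkc held at least 80% of the light chain constant UMIs, and lambda where Iglc1, Iglc2 and Iglc3 together did. Kappa cells were 149 of 153 in the normal duodenum, 97.4% (93.4–99.3), and 263 of 271 in the polyp, 97.0% (94.3–98.7). The 2 shares lay inside each other's interval. No member was left unassigned, and the separation was wide: the least pure kappa member still held 89.3% Igkc.

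The lambda cells were 4 in the normal duodenum and 8 in the polyp. Lambda 1, the Iglc1 chain, led in 3 of the 4 normal and 6 of the 8 polyp cells, and Iglc2 led in the others. The 4 normal lambda cells held 33335, 23008 and 17440 Iglc1 UMIs and, in the Iglc2 cell, 3367 Iglc2 UMIs. The polyp Iglc1 cells held 1752 to 5424 Iglc1 UMIs, and the Iglc2 cells 4006 and 1280 Iglc2 UMIs. Igkc in these cells was 1 to 31 UMIs in the normal duodenum and 0 to 66 in the polyp. The lowest kappa cell held 103 and 102, so the gap in Igkc counts was narrower in the polyp. The V gene paired with each constant gene followed the layout of the mouse lambda locus, in which Iglv1 joins Iglc1 or Iglc3: all 9 Iglc1 cells had 16 to 212 Iglv1 UMIs, 2 of the Iglc2 cells had 17 and 8 Iglv2 UMIs, and the third had 26 Iglv3 UMIs.

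Kappa cells nevertheless carried low counts of lambda RNA in both libraries. A median of 5 Iglc1, 19 Iglc2 and 8 Iglc3 UMIs was found per kappa cell in the normal duodenum and 7, 15 and 6 in the polyp. Iglc2 was found in 91.3% and 93.2% of kappa cells against 6.07% and 8.94% of the other kept barcodes. It made up 0.203% and 0.228% of all kappa-cell UMIs and 0.00161% and 0.00323% of the UMIs of the other barcodes. Iglc2 and Iglc3 are 96.5% identical over 314 coding bases. Their counts were nonetheless separate in the Iglc2-led lambda cells, which held 1, 8 and 0 Iglc3 UMIs. The lambda V gene Iglv1 was found in 83.9% of normal and 60.1% of polyp kappa cells, with a median of 6 and 1 UMIs.

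The Iglv1 RNA of kappa cells did not come with the constant gene it is spliced to in lambda cells. Kappa cells held 0.923 Iglc1 UMIs per Iglv1 UMI in the normal duodenum and 2.49 in the polyp, where the Iglc1-led lambda cells held 216 and 125. The kappa cell with most Iglv1, at 156 UMIs, had 27273 Igkc and 0 Iglc1 UMIs in the normal duodenum; in the polyp that cell had 92 Iglv1, 3966 Igkc and 0 Iglc1 UMIs. Iglv1 outnumbered all Igkv genes together in 12 normal and 15 polyp kappa cells. Where these V reads began and which constant region they joined was not analysed here. The germline end of Iglv1 (GENCODE vM21, minus strand, chr16:19085017-19085103), shown because its reads appear in both light chain types, has the codon of its last cysteine in capitals:
Iglv1: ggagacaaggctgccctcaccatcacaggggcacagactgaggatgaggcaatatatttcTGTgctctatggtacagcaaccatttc

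Lambda and kappa cells were compared within each library, with few lambda cells behind each level. Of 3503 genes counted, 20.5% were past 2-fold higher and 12.8% past 2-fold lower in lambda cells of the normal duodenum, and 18.3% and 14.8% in those of the polyp. In both libraries 183 (5.22%) were past 2-fold higher and 88 (2.51%) past 2-fold lower in lambda cells, and 3 (0.0856%) also had intervals clear of 1 in both. Metallothionein Mt1, which binds zinc and copper, stood at 4735 CPM in lambda and 1387 CPM in kappa cells of the normal duodenum, a ratio of 3.41 (2.82–4.11); the polyp levels were 5917 and 2068 CPM (2.86, 2.43–3.35). It was found in 3 of 4 and 7 of 8 lambda cells. The small heat shock protein Hspb1 was lower in lambda cells, at 38.2 against 712 CPM and 70.0 against 486 CPM, as was Ly6a, at 153 against 572 CPM and 175 against 834 CPM. These ratios rest on 1 and 2 Hspb1 UMIs and 4 and 5 Ly6a UMIs in the lambda cells.

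V gene UMIs are few in 3′ libraries, since the V region lies at the far end of the transcript, but a leading V gene could be named for most members. A gene was taken as leading with at least 3 UMIs and at least 50% of the V UMIs of that chain. A heavy chain V gene was named in 130 normal members, with 40 different genes, and in 204 polyp members, with 57. Counting Igkv and Iglv together, a light chain V gene was named in 138 normal and 241 polyp members, with 41 and 51 genes. Near-identical V genes can share reads, so a name stands for the gene and its closest copies.

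Igkv1-110 led most often in both libraries, in 25 of 138 normal (18.1%) and 36 of 241 polyp members (14.9%). Because Iglv1 led in 16 normal and 21 polyp members under this rule, most of them kappa cells by their constant gene, the light chain V gene was also taken within the locus of the constant gene, a choice made after these values were seen. Among kappa cells, Igkv1-110 then led in 17.9% (25 of 140) and 15.2% (36 of 237), followed in the normal duodenum by Igkv10-96 with 14 cells, which led 10 in the polyp. The first heavy chain genes differed. Ighv1-42 led in 19 normal members, 14.6% (9.03–21.9), and 13 polyp members, 6.37% (3.44–10.7). Ighv3-6 led in 2 normal members, 1.54%, and in 19 polyp members, 9.31% (5.70–14.2). Ighv9-3 led in 3 and 14. The libraries had 32 leading heavy chain genes in common, 80% of the normal and 56.1% of the polyp set. These sets came from 130 normal and 204 polyp members, and more cells can show more genes, so the 2 shares are not on an equal footing.

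**Figure D2:**
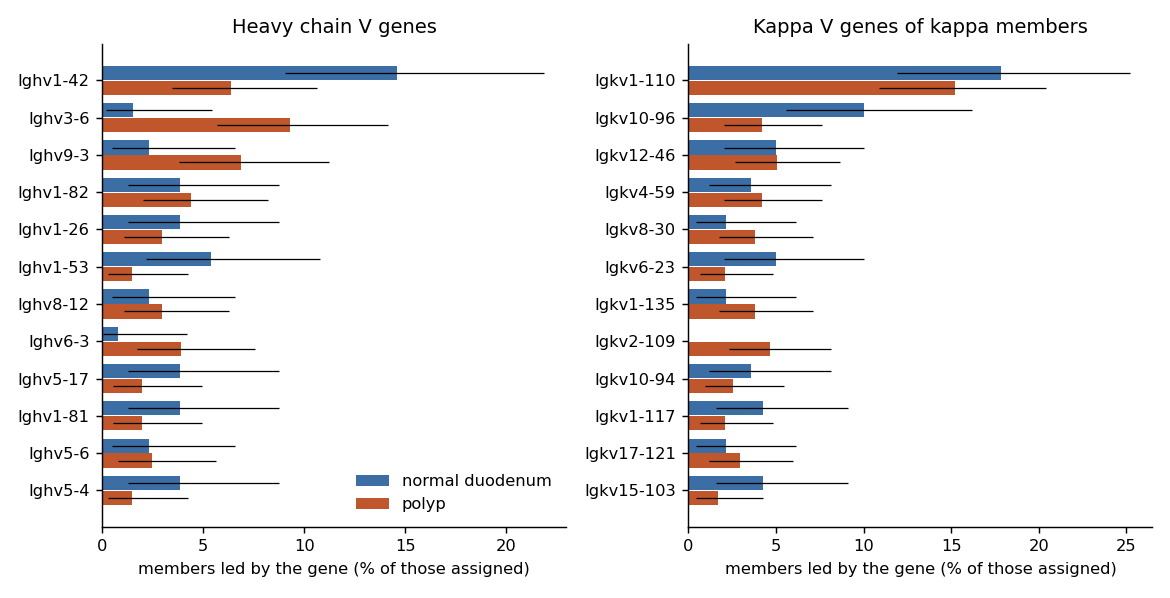
Percentage of the assigned IgA plasma cells led by each V gene, for the 12 most frequent heavy chain genes (left) and kappa V genes (right); bars are blue for normal duodenum and orange for polyp, and lines are exact 95% binomial intervals. Igkv1-110 leads in both libraries, Ighv1-42 leads in the normal duodenum and Ighv3-6 in the polyp.

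The same heavy and light chain combination was the most frequent in both libraries. Ighv1-42 with Igkv1-110 was found in 17 normal and 12 polyp members, with the light chain V gene taken either way. With that gene taken within its locus, the next pair had 4 and 7 cells, 129 normal members had both genes named and formed 89 different pairs, and 195 polyp members formed 150. Pairs seen in more than 1 cell numbered 21, with 61 cells (47.3%), in the normal duodenum and 23, with 68 cells (34.9%), in the polyp. With Igkv and Iglv together these were 17 pairs with 52 cells and 19 pairs with 58 cells. The libraries shared 12 pairs, 13.5% of the normal and 8% of the polyp pairs. Beside Ighv1-42 with Igkv1-110, Ighv1-61 with Igkv4-59 was seen in more than 1 cell of each, in 2 and 2. Cells of 1 pair may be kin or may have arisen apart, and the mice of a library cannot be separated, so cells are not independent counts of a pair.

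The pairing was close to exclusive in the normal duodenum. Of 18 normal Igkv1-110 cells with a named heavy chain gene 17 had Ighv1-42, whereas the 23 such polyp cells had 9 different heavy chain genes, with Ighv1-42 in 12. Conversely, 17 of 19 normal and 12 of 13 polyp Ighv1-42 cells had Igkv1-110. The 17 normal cells each held 3 to 31 Ighv1-42 and 13 to 114 Igkv1-110 UMIs, and the 12 polyp cells 3 to 12 and 12 to 69. Ighv1-42 made up 98.6% and 98.8% of their heavy chain V UMIs and Igkv1-110 made up 98.7% and 96.5% of their kappa V UMIs. Among all other members, a single UMI or more of Ighv1-42 was found in 7 of 136 and 7 of 259, and the other kept barcodes held 15 and 3 such UMIs over 3099 and 8189 barcodes. Total UMIs of the paired cells ran from 4131 to 38261 and from 4995 to 16048, so they were not the deepest cells only.

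The second most frequent pair of each library was not seen in the other. Ighv3-1 with Igkv2-109 was found in 7 polyp cells and in 0 of 129 normal cells, where 3 cells would be 2.33%. Ighv2-2 with Igkv10-94 was found in 4 normal cells and in 0 of 195 polyp cells, where 3 cells would be 1.54%. These shares for 3 cells are a rough limit for a count of 0 and not exact interval ends. Ighv3-6, the leading polyp heavy chain gene, was spread over 11 light chain genes in 16 cells, with Igkv19-93 in 4. Ighv9-3 was spread over 10 light chain genes in 13 cells. Their frequency thus came from many combinations, and that of Ighv1-42 from 1. The germline ends of the V genes of both leading repeated pairs follow, to show which segments were joined, with the codon of the last cysteine in capitals. They lie at chr12:114937113-114937181 (Ighv1-42, minus strand), chr6:68271182-68271267 (Igkv1-110, plus strand), chr12:113964388-113964458 (Ighv3-1, minus strand) and chr6:68303073-68303158 (Igkv2-109, plus strand) in GENCODE vM21 on mm10, all coding:
Ighv1-42: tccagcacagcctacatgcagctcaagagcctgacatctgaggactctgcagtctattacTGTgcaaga
Igkv1-110: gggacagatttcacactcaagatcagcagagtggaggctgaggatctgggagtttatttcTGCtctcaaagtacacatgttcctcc
Ighv3-1: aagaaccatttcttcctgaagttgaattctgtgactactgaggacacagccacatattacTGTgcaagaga
Igkv2-109: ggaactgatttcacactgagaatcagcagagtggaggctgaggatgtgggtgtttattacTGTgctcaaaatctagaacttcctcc

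Cells of the Ighv1-42 and Igkv1-110 pair were set against all other kappa cells, a split made after the pairs were seen. Of 3434 genes, 47 (1.37%) were past 2-fold higher and 66 (1.92%) past 2-fold lower in both libraries; intervals were clear of 1 in both for 8 (0.233%) and 6 (0.175%). The calcium channel gene Cacna1s stood at 1030 against 476 CPM in the normal duodenum and 1225 against 392 CPM in the polyp. Tubb2a, a beta tubulin, stood at 184 against 57.2 CPM and 193 against 50.9 CPM. The anti-apoptotic gene Bcl2 (92.0 against 34.8 CPM and 236 against 89.6 CPM) and the death receptor gene Fas (138 against 58.5 CPM and 193 against 55.7 CPM) were both higher. The others higher were Hist3h2a, Gm30211, Fam107b and Bcl10. Lower were Cd52, a surface glycoprotein of lymphocytes, at 1132 against 2393 CPM and 301 against 1709 CPM, and Klf4, Ifitm3, Plac8, Mt2 and 2210407C18Rik. The levels rest on 17 and 12 cells.

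Between the libraries, 414 of 3705 genes with at least 50 UMIs were past 2-fold higher in polyp members (11.2%) and 137 past 2-fold lower (3.7%), 14.9% in either direction. The median gene lay at a log2 ratio of 0.10, a ratio of 1.07. With all UMIs as the denominator, the median gene shifted up by a further 0.44 on the log2 scale; immunoglobulin took a smaller share of UMIs in the polyp. The calls were then 871 higher and 65 lower. The higher share of all calls went from 75.1% to 93.1%. With each cell thinned to 500 non-immunoglobulin UMIs, 554 genes could be counted and the higher share was 44.7%. Directions of gene groups are therefore read against the median gene.

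Immediate-early and heat shock genes had the lowest median of the 19 gene lists, but not in every setting. Without the members that carried RNA of other types, glycolysis genes were lower (−0.79 against −0.69). After thinning, homing genes (−2.14, 1 gene) and B-cell genes (−1.20, 2 genes) were lower than this list (−0.99). Of the 25 immediate-early and heat shock genes counted, 11 were past 2-fold lower and 1, Nr4a1, past 2-fold higher. The shares of all genes were 3.7% lower and 11.2% higher. The median log2 ratio of the list was −0.77. Among the 11 were Klf2, given below, with a ratio of 0.218, and the AP-1 subunits Jun, Fos and Junb. Jun stood at 11664 CPM (11447–11885) in normal members against 2719 CPM (2624–2817) in polyp members, a ratio of 0.233 (0.224–0.243). Fos stood at 8732 and 2122 CPM, a ratio of 0.243 (0.232–0.254). Junb stood at 3742 and 1033 CPM, the phosphatase gene Dusp1 at 1205 and 397 CPM, Ier2 at 1170 and 354 CPM, and Nfkbia, the NF-kappa-B inhibitor, at 3123 and 981 CPM. The chaperone genes Dnajb1 (3643 and 1234 CPM), Hspa1a (4241 and 1981 CPM) and Hspa8 (4694 and 2150 CPM) were lower as well, while Fosb (2033 and 1758 CPM) and Hsp90aa1, at a ratio of 0.822, stayed within 2-fold.

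In the other kept barcodes the list summed to 17303 and 17388 CPM, against 70912 and 30033 CPM in the members. Fos stood there at 1477 and 1536 CPM, Jun at 1366 and 1116 CPM and Dnajb1 at 669 and 679 CPM, while Junb (1228 and 804 CPM) and Nfkbia (549 and 349 CPM) were lower in the polyp. B-cell barcodes, 8 and 79, held 38712 and 19204 CPM for the list, 2011 and 1048 CPM for Jun and 2249 and 649 CPM for Dnajb1. Fos was not lower in the polyp B-cell barcodes, at 1056 and 1263 CPM. The thinned cells gave the same order: a UMI of Fos remained in 82.2% (75.2–88.0) of normal and 53.9% (47.7–59.9) of polyp members, against 89.5% and 87.8% before thinning. With all UMIs as the denominator 8 of the 25 genes were past 2-fold lower and the median was −0.33, and without the members that carried RNA of other types 10 of 24 were.

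Klf2, a transcription factor that in lymphocytes controls trafficking receptors, stood at 4756 CPM (4617–4897) in normal members and 1036 CPM (978–1097) in polyp members, 4.59-fold lower (4.30–4.90). Normal B-cell barcodes (8) held 5009 and polyp ones (79) 1113 CPM, and the other barcodes 200 and 359 CPM. The small GTPase gene Rhob stood at 1731 and 573 CPM. Ly6k, a GPI-anchored surface protein gene, had the lowest ratio of the named genes, with 755 and 44.9 CPM, a ratio of 0.0595 (0.0439–0.0791). Its UMIs lay in 28 normal members (18.3%) and 15 polyp members (5.54%), with up to 115 in 1 normal member, so it marked a minority of cells. Ada, adenosine deaminase, stood at 62.8 and 13.2 CPM.

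**Figure D3:**
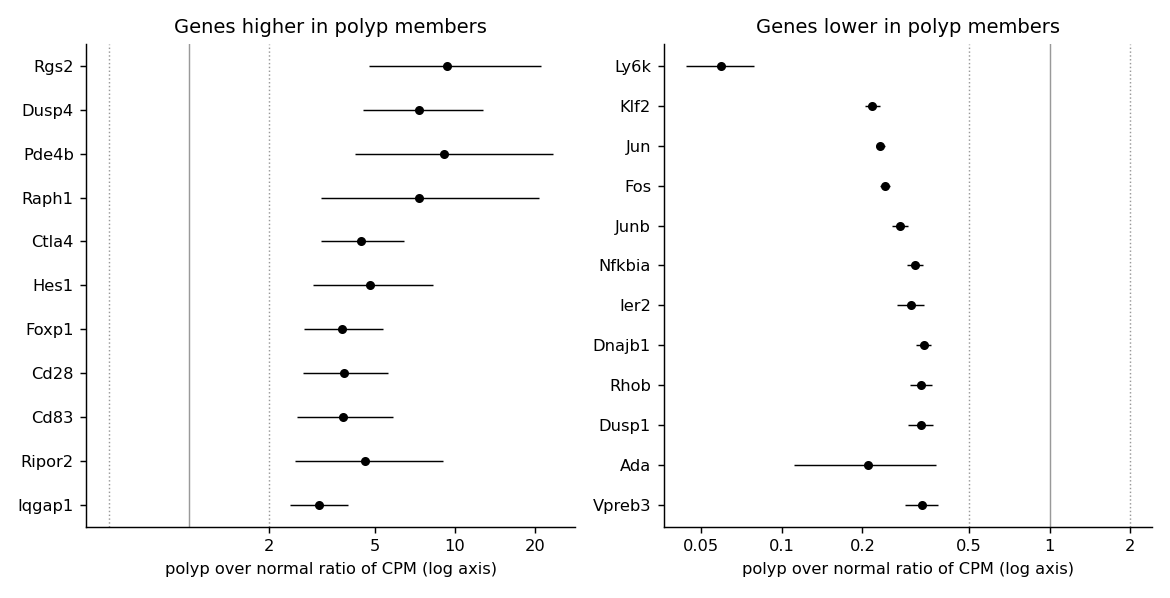
Polyp over normal ratio of CPM in IgA plasma cells (log axis) with exact 95% intervals for the named genes higher (left) and lower (right) in the polyp; dotted lines mark 2-fold. Gast is left out because 1 cell held 95.6% of its UMIs; all intervals shown lie past 2-fold.

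Several genes of the B-cell programme were lower in polyp members. Vpreb3, a B-lineage chaperone of immunoglobulin chains, stood at 707 CPM in normal members and 235 CPM in polyp members, a ratio of 0.333 (0.287–0.384), and Ly6d at 3489 and 1344 CPM, a ratio of 0.385 (0.362–0.410). The signalling subunits of the B-cell receptor, Cd79a (2121 and 1061 CPM) and Cd79b (374 and 207 CPM), lay at ratios of 0.500 and 0.554. Both were counted on the plasma identity list. The invariant chain Cd74 of MHC class II stood at 6707 and 2647 CPM, a ratio of 0.395 (0.378–0.412), whereas the class II chains H2-Ab1 (304 and 243 CPM), H2-Eb1 (192 and 163 CPM) and H2-Aa (56.5 and 96.0 CPM) did not go past 2-fold. The class II median was −0.27, and 0.17 with all UMIs as the denominator, where the median of all genes was 0.55. Ly6d was also carried by the other polyp barcodes, at 446 CPM against 22.2 CPM in the normal ones. With all UMIs as the denominator, Cd74 and Ly6d came to 1.86-fold and 1.91-fold lower. Of the 7 B-cell genes counted, 2 were past 2-fold lower and 1 higher, where 3.7% and 11.2% of all genes were. The higher one was Cd83, an activation marker, at 32.0 and 122 CPM.

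Genes of the ER folding machinery stood lower in polyp members as a group, although most stayed within 2-fold. Of 27 counted, 7 were past 2-fold lower and none higher, where 3.7% and 11.2% of all genes were. The list's median log2 ratio was −0.42 against 0.10 for all genes. Creld2, an ER stress-induced disulphide isomerase, stood at 1078 CPM (1012–1146) in normal members and 381 CPM (346–418) in polyp members, a ratio of 0.353 (0.315–0.396). Pdia6 (840 and 349 CPM), Sdf2l1 (989 and 434 CPM), Dnajb11 (411 and 181 CPM), Ero1lb (87.3 and 39.6 CPM), Dnajc3 (694 and 337 CPM) and Erp44 (284 and 139 CPM) followed. The major chaperones differed less: Hspa5, which encodes BiP, the chaperone that holds unassembled heavy chains, stood at 2572 and 1883 CPM, a ratio of 0.732 (0.690–0.776), and Hsp90b1 at 3573 and 3181 CPM, a ratio of 0.890.

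The call for single chaperones depended on the setting, and the place of the group below the median gene did not change in the settings run. Without the members that carried RNA of other types, 3 of the 27 genes (Creld2, Pdia6 and Dnajb11) stayed past 2-fold lower and 1 went past 2-fold higher, with a median of −0.35. With all UMIs as the denominator, 1 was past 2-fold lower, 1 higher, and the median turned to 0.02, where the median of all genes was 0.55. After thinning, a Creld2 UMI remained in 39.5% (31.6–47.7) of normal and 16.2% (12.1–21.2) of polyp members, and a Pdia6 UMI in 38.8% (31.0–47.0) and 20.7% (16.0–26.0); before thinning the Creld2 shares were 86.3% and 66.1%.

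**Figure D4:**
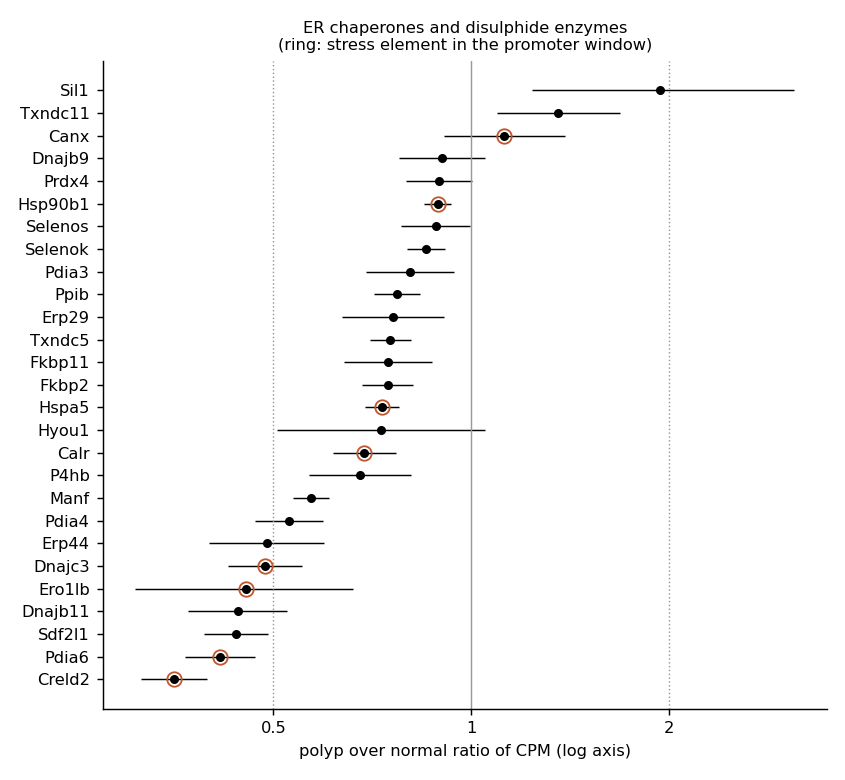
Polyp over normal ratio of CPM in IgA plasma cells (log axis) with exact 95% intervals for the 27 ER chaperone and disulphide enzyme genes counted; dotted lines mark 2-fold and rings mark genes with an ER stress element in the promoter window. Of the 27 points 7 lie below 0.5, and 4 of these carry a ring. Some genes without a ring had no promoter to search.

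Promoters of these genes were searched for the ER stress response element, CCAAT and CCACG 9 bases apart on either strand, the sequence that the stress-activated factor ATF6 is known to use. The window ran from 250 bases before to 50 bases after the start (RefSeq, GRCm38.p6). The element was found in 39 of 32851 promoters (0.119%) and in 8 of 31 promoters of the chaperone list, those of Hspa5, Calr, Hsp90b1, Canx, Pdia6, Ero1lb (listed as Ero1b), Dnajc3 and Creld2. Of these 8 genes 4 were past 2-fold lower, with ratios from 0.353 for Creld2 to 1.12 for Canx over the 8, so genes with a match spanned a wide range of ratios. The list was chosen for its function, and a match is a description of letters only. Derl3 and Syvn1 of the stress signalling list also had it. The windows below show the element in capitals with the flanking bases, on the strand of the gene and wholly before its start. They lie at chr2:34771995-34772073 (Hspa5), chr15:88819490-88819568 (Creld2), chr12:17266461-17266539 (Pdia6) and chr10:75893212-75893290 (Derl3), all on the plus strand, and in Creld2 and Derl3 the element reads on the opposite strand:
Hspa5: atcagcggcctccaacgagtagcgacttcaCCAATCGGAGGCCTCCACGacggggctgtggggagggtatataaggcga
Creld2: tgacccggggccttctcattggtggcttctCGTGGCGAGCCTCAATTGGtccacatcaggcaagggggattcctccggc
Pdia6: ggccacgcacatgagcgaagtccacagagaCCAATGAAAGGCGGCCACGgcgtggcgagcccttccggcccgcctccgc
Derl3: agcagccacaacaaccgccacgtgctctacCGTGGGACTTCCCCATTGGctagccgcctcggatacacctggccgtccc

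Of the 21 stress signalling genes, 2 were past 2-fold higher and none lower, a share of higher genes below the 11.2% of all genes; the list's median was −0.18. Both encode membrane sensors. Atf6 stood at 51.1 CPM in normal members and 142 CPM in polyp members, a ratio of 2.77 (1.999–3.91), and Eif2ak3, which encodes PERK, at 43.7 and 98.7 CPM, a ratio of 2.26 (1.57–3.32). Herpud1 (ratio 0.682), Edem2 (0.603), Derl1 (0.615) and Derl3 (0.571) of the degradation pathway stood below 1, whereas Xbp1 was level at 0.996 (0.930–1.07). Of the 29 translocon and glycosylation genes 1, the oligosaccharyltransferase subunit Stt3b, was past 2-fold higher, with a list median of −0.22, and of the 25 ER to Golgi transport genes none was past 2-fold (median −0.31). With all UMIs as the denominator these 3 medians became 0.26, 0.22 and 0.14, all below that of all genes.

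Of the 22 plasma identity genes counted, 3 were past 2-fold higher and 2 past 2-fold lower, where 11.2% and 3.7% of all genes were. The median was −0.06. It was 0.38 with all UMIs as the denominator, 0.21 as the mean per barcode and 0.16 without the members that carried RNA of other types. All genes had medians of 0.55, 0.14 and 0.07 in these settings. Trp53inp1, a stress-response gene, stood at 538 and 1256 CPM, a ratio of 2.34 (2.11–2.59). Prdm1, which encodes BLIMP-1, the repressor that fixes plasma cell fate, stood at 57.5 and 121 CPM, a ratio of 2.10 (1.52–2.93), but in the thinned cells its log2 ratio was −0.10. The third was Cd28, at 40.5 and 155 CPM. Lower were Ly6k and Oosp1 (143 and 57.3 CPM). Irf4, the transcription factor gene that drives plasma cell differentiation (120 and 111 CPM), Eaf2 (359 and 380 CPM) and Tent5c, a poly(A) polymerase gene (655 and 668 CPM), had intervals that included 1.

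**Figure D5:**
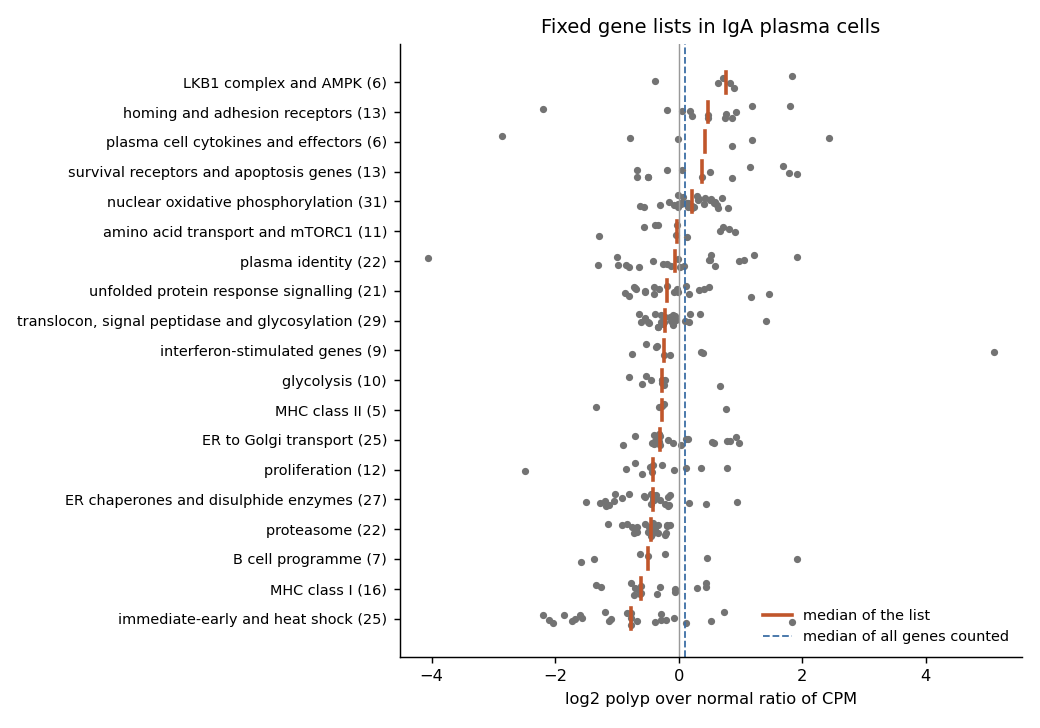
Log2 polyp over normal ratio of CPM in IgA plasma cells for the members of 19 gene lists; each grey point is 1 gene with at least 50 UMIs, orange bars are list medians, the dashed line is the median of all genes counted (0.10), and the number of genes is in parentheses. Immediate-early and heat shock genes have the lowest median (−0.77). Without the members that carried RNA of other types, glycolysis genes do, and after thinning the 1 homing gene left does.

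Surface receptors for survival signals were present in both libraries. Tnfrsf17 (BCMA), the receptor for the survival factor APRIL, stood at 263 and 231 CPM against 0.367 and 0.567 CPM in the other barcodes, a ratio of 0.877 (0.735–1.05). Tnfrsf13b (TACI) stood at 164 and 233 CPM. Of the 13 survival and apoptosis genes counted, 4 were past 2-fold higher in polyp members and none lower: Cd28, a costimulatory receptor, with a ratio of 3.83 (2.69–5.59), the pro-apoptotic Bcl2l11 at 3.53, the TGF-beta receptor gene Tgfbr1 at 3.27 and Bcl2 at 2.25. The background for higher genes was 11.2% of 3705. Thinning brought Bcl2 to 1.25-fold. Ctla4, a ligand-binding relative of Cd28, stood at 40.5 and 180 CPM, a ratio of 4.44 (3.13–6.46), and a UMI was found in 25 normal and 117 polyp members; after thinning it remained in 1.32% (0.160–4.67) and 9.59% (6.36–13.7). In the other barcodes Ctla4 stood at 31.3 and 13.9 CPM and Cd28 at 17.6 and 15.8 CPM, and the summed T-cell markers of the members were lower in the polyp, as given above.

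Homing receptors of intestinal plasma cells were present in both libraries. Ccr10, the receptor for the epithelial chemokines CCL27 and CCL28, stood at 175 CPM in normal members and 198 CPM in polyp members, a ratio of 1.13 (0.924–1.40), against 0.105 and 0.567 CPM in the other barcodes. Ccr9, the receptor for the small intestinal chemokine CCL25, stood at 37.3 and 52.0 CPM, a ratio of 1.39 (0.903–2.18). The subunits of the gut-homing integrin, Itga4 (70.3 and 129 CPM) and Itgb7 (30.9 and 59.0 CPM), lay at ratios of 1.83 (1.36–2.49) and 1.91 (1.22–3.07), short of 2-fold. Of the 13 homing genes counted, 2 were past 2-fold higher, where 11.2% of all genes were. Klf2, also counted among the immediate-early genes, was past 2-fold lower, where 3.7% of all genes were. Cd44 lay at 2.29, with 24.99 and 223 CPM in the other barcodes, and at 1.39-fold after thinning. Cd9 lay at 3.50, with 76.2 and 548 CPM there, and at 1.48-fold without members that carried RNA of other types.

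Further named genes past 2-fold higher in the polyp were the signalling regulators Rgs2 (9.59 and 89.9 CPM), Dusp4 (19.2 and 141 CPM) and Pde4b (7.46 and 67.8 CPM), with ratios of 9.37 (4.75–21.1), 7.35 (4.51–12.7) and 9.10 (4.21–23.4). The other barcodes held 13.0 and 20.2 CPM of Dusp4 and 49.8 and 80.5 CPM of Rgs2. The Notch target Hes1 stood at 20.2 and 96.9 CPM, the forkhead factor Foxp1 at 46.9 and 177 CPM and the scaffold gene Iqgap1 at 88.4 and 272 CPM. Raph1 and Ripor2 lay at ratios of 7.31 and 4.58, with 46.7 and 63.4 CPM in polyp members. In the other barcodes Hes1 stood at 50.3 and 88.4 CPM, Foxp1 at 53.3 and 97.5 CPM and Iqgap1 at 96.6 and 163 CPM. Raph1 stood there at 27.6 and 40.6 CPM, Pde4b at 13.1 and 14.0 CPM and Ripor2 at 3.40 and 3.93 CPM. Polyp members thus lay little above the other polyp barcodes for Hes1 and Raph1. Gastrin (Gast) ranked first by its interval, with 1 UMI in normal and 2385 in polyp members, but 1 polyp member held 2281 of them; without it the level was 91.6 CPM, beside 1191 CPM in the other polyp barcodes.

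Effector molecules were few. Il10 had 12 and 13 UMIs in all and Tgfb1 24 and 21, both too few to be counted. Cd274, which encodes PD-L1, stood at 99.1 and 180 CPM, a ratio of 1.81 (1.41–2.34), against 4.40 and 8.29 CPM in the other barcodes. Cxcl10, a chemokine gene, stood at 1357 and 783 CPM against 103 and 160 CPM. Csf2 had 23 UMIs in the normal duodenum, all in 1 member. Of the 6 effector genes counted, Areg (13.8 and 77.5 CPM) and Lgals3 were past 2-fold higher and Ccl5 (411 and 56.4 CPM) lower. The shares of all genes were 11.2% and 3.7%. Lgals3 lost the call in 4 of 7 alternatives, with 1.20-fold after thinning and 1.35-fold as the mean per barcode. Ccl5 stood at 4518 and 159 CPM in the other barcodes.

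MHC class I genes had a median of −0.61, with 2 of 16 past 2-fold lower and none higher. For this and the lists below, the shares of all genes were 3.7% lower and 11.2% higher. With all UMIs as the denominator the median was −0.16 and none was past 2-fold, with Psmb8 at 1.87-fold and H2-T22 at 1.75-fold lower. The immunoproteasome subunit Psmb8 stood at 918 and 361 CPM, H2-T22 at 112 and 46.7 CPM, and B2m, the invariant light chain, at 3614 and 2378 CPM. The other barcodes differed in the same direction, with B2m at 1126 and 360 CPM and Psmb8 at 491 and 43.7 CPM. Of 9 interferon-stimulated genes only Ifit1 was past 2-fold, with 1 and 62 UMIs and a ratio of 51.3 (8.87–2058); Bst2 (821 and 748 CPM) and Isg15 (70.3 and 90.7 CPM) were not. That list's median was −0.24, and 0.20 with all UMIs as the denominator, where the median of all genes was 0.55. The cell-cycle genes had a median of −0.42, and 0.02 with all UMIs as the denominator. It was 0.07 as the mean per barcode and 0.0022 for the 2 genes left after thinning, where all genes had 0.14 and 0.01. The cell-cycle list thus lay below the median gene in these settings, by little as the mean per barcode and after thinning. Of the 12 counted 1 was past 2-fold lower, Ube2c, where 1 normal member held 53.7% of the UMIs. Mki67 was found in 7.84% and 10.3% of members, at 28.8 and 37.0 CPM, close to the 30.7 and 30.4 CPM of the other barcodes. None of 31 nuclear oxidative phosphorylation genes (median 0.21), none of 10 glycolysis genes (−0.27) and 1 of 22 proteasome genes, Psmc2 (−0.44), was past 2-fold. The glycolysis median was 0.17 with all UMIs as the denominator, also below the 0.55 of all genes.

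Stk11, the floxed gene, stood at 29.8 CPM (28 UMIs) in normal and 22.9 CPM (26 UMIs) in polyp members, a ratio of 0.768 (0.433–1.36), so a difference was not detectable at this depth. Of the 6 genes of the LKB1 and AMPK list counted, the nuclear receptor gene Nr4a1, a target of CREB signalling, was past 2-fold higher at 29.8 and 107 CPM, and Sik1, Cab39, Mark2 and Crem lay between 1.56 and 1.90. Of all genes 11.2% were past 2-fold higher. Of the 6, 5 were with all UMIs as the denominator, where 23.5% of all genes were. With the mean per barcode 3 were, where 13.4% of all genes were. Nr4a1 stood at 113 and 236 CPM in the other barcodes.

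Within each library, members were also divided at the median immunoglobulin share, a split made with results known. The selection rule uses this share, and RNA carried from other cell types lowers it by construction, so the values are a description only. Members with at least 5% of such RNA were 2 above against 10 below the median in the normal duodenum and 9 against 39 in the polyp. Levels in members at or above the median share were set against those in members below it. Of 3503 genes, 14 (0.4%) were past 2-fold higher and 27 (0.771%) past 2-fold lower above the median in both libraries. Intervals were clear of 1 in both for 10 (0.285%) and 23 (0.657%). Lower were the cycling genes Pclaf (4.64 against 94.6 CPM in the normal duodenum, 4.21 against 65.2 CPM in the polyp), Stmn1 and Tyms, the chemokine gene Ccl4 (16.2 against 156 CPM, 25.2 against 146 CPM) and the class II gene H2-Aa (30.1 against 78.8 CPM, 48.4 against 130 CPM), together with acinar genes such as Clps. Higher were Tmem176b (1917 against 956 CPM, 1054 against 481 CPM), Rrad (336 against 124 CPM, 187 against 77.3 CPM), Nacc2, Pon3, Kcnmb4, Cst6, Cd55, Cib2, Chid1 and Adssl1.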

How the data were processed

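Counts of UMIs per gene and barcode were taken as deposited, and the matrices hold 32285 genes. Per the file headers the authors' matrices came from Cell Ranger 5.0.0, while the submitters' processing notes name Cell Ranger 3.0.0 and mm10; further filters are not given in the sources used here. The members and gene lists were chosen with earlier results of these data known. Counts were summed over the members of a library, divided by their non-immunoglobulin UMIs (393 immunoglobulin genes, Jchain included, left out) and scaled to CPM. Poisson intervals were used for levels, conditional binomial intervals for ratios and Clopper-Pearson intervals for shares, all exact; a list median uses 0.5 added UMIs. Past 2-fold refers to the ratio as measured. Genes were named where they stood on a list, or by the lambda comparison, or as the first 12 in a direction when ranked by the end of the ratio's interval nearest to 1. That end had to lie past 1.5, and a gene needed 50 UMIs, detection in 10% of members of the higher library and a level no lower than in other barcodes; immunoglobulin, mitochondrial, ribosomal, haemoglobin, unnamed and sex-linked genes were left out. In all, 75 higher and 77 lower genes were eligible. B-cell barcodes had a Ms4a1 and a Cd79a UMI. Of the intervals, only those of ratios were tested on simulated data, with Poisson counts that hold no differences between cells. Alternatives covered thresholds, denominators, thinning and single members. Python 3.11.15, numpy 2.4.6, scipy 1.17.1, pandas 2.3.3 and matplotlib 3.10.9 were used with seed 1. Positions are from GENCODE vM21.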

Additional observations from a re-analysis of the deposited data

How the results depend on the processing

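No paired analysis was possible because each group had 1 library. The share of IgA plasma cells moved with the filters: with at most 10% mitochondrial UMIs it was 5.84% in the normal duodenum and 3.72% in the polyp, with at least 1000 UMIs 7.19% and 4.28%, and with 1 Mzb1 UMI it was 5.75% in the normal duodenum. The kappa share and the share of Igkv1-110 and of its pair with Ighv1-42 stayed inside their intervals under each alternative run. Genes past 2-fold higher numbered 414, with all UMIs as the denominator 871, with at least 20 UMIs per gene 1047, without members carrying RNA of other types 262 and after thinning 38 of 554; lower genes numbered 137, and 65, 308 and 47 with the first, second and last of these. Thinning reversed Prdm1 (−0.10) and Ube2c (0.75). Of 57 genes past 2-fold that were followed, 34 stayed past it under all 7 alternatives tried. The causes were not tested. Depth limits genes with few UMIs, such as Stk11, whose intervals are wide. With 1 library per group, differences between mice could not be measured.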
